A study of Homo sapiens with 42 samples.

Results

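Regions open only in untreated 92-1 were stretches of the genome that were called as accessible in every DMSO replicate of 92-1, a uveal melanoma cell line, and in no DMSO replicate of 6 other human cancer lines. They were chosen on the peak lists of the DMSO samples: bases inside a peak interval in all 3 lists of 92-1, in segments of at least 100 bp on chromosomes 1 to 22 and X, with no overlapping interval in any of the 18 DMSO lists of the other lines. The rule gave 4910 regions, 12.3% of the 39806 segments called in all 3 DMSO lists of 92-1, and 227795 merged segments were found over all 7 lines. The other 34896 segments of 92-1 overlapped a DMSO peak of another line and are called shared segments here. The calls in the DMSO lists made the choice and are given only as a description. The lists of the FHT-1015 samples played no part in it.

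The study measured chromatin accessibility by ATAC-seq, in which the transposase Tn5 cuts and tags open DNA, in 42 samples of established lines. All samples were labelled wild type in genotype and were taken after 4 h. Beside 92-1, the lines were A375 from a melanoma, RD from a rhabdomyosarcoma, 22RV1 from a prostate adenocarcinoma, HCT116 from a colorectal adenocarcinoma, DU4475 from an invasive breast carcinoma and MV411 from an acute myeloid leukemia. Each had 3 biological replicates with DMSO, the negative control, and 3 with FHT-1015, which inhibits SMARCA4 and SMARCA2, the 2 ATPases of BAF chromatin remodelling complexes. Each line is a single model of its tumour type, and how the replicate cultures were grown is not given in the labels.

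BAF complexes use ATP to slide and evict nucleosomes, and they keep many enhancers accessible to the transcription factors that bind there. Enhancers differ between cell types far more than promoters do. In melanocytes and their tumours, enhancers bound by MITF, SOX10, PAX3 and TFAP2A drive the genes of pigment synthesis. Uveal melanoma arises from melanocytes of the eye, and its usual drivers are activating mutations of the Gq proteins GNAQ and GNA11.

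The label of the line was set against promoters of marker genes, in windows from 250 bases before to 50 after the start. TYRP1, an enzyme of the melanosome, had a promoter call in 2 of the 3 DMSO lists of 92-1 and in none of the 18 lists of the other lines. MLANA, a melanosome protein, had one in 1 list of 92-1 and in none of the others. GPR143, the ocular albinism receptor, had one in all 3 lists of 92-1, in 1 list each of 22RV1 and RD, and in none of A375. MITF, the master regulator of the lineage, was called in all 3 DMSO lists of every line. Over whole lists the promoters did not single out 92-1. Of 19 pigmentation genes with a window, 9 were called in all 3 DMSO lists of 92-1, against 7 in A375, 10 in 22RV1 and 11 in DU4475. Of 14 melanocyte transcription factors, 7 were called in 92-1, 10 in A375 and 11 in RD. KIT, the receptor of melanocyte growth, had no promoter call in 92-1 and calls in all 3 lists of 22RV1 and DU4475. Of the epithelial genes with a window, 0 of 3 were called in all 3 lists of 92-1, as were 0 of 6 skeletal muscle genes, 0 of 3 intestinal genes, 2 of 8 myeloid genes, 1 of 4 breast genes and 2 of 4 prostate genes. A count of 0 was not particular to 92-1. RD and MV411 also had 0 epithelial genes, HCT116 0 skeletal muscle genes, and RD, A375 and MV411 0 intestinal genes. Of 17 BAF subunit genes, 9 were called in all 3 lists of 92-1, against 13 to 17 in the other lines. Missing calls in 92-1 therefore do not speak to its label.

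Few of the regions lay at a promoter. Of 22132 promoter windows of the RefSeq table, 9 were overlapped by a region open only in 92-1 (8 regions in all) and 7743 by some 92-1 segment. The upstream part of 3 of these windows is printed (RefSeq, GRCh38.p14, 250 bases each, ending at the base before the start), to show what the few promoter-like members are made of. Capitals mark the bases inside the region. DDX25 encodes an RNA helicase of male germ cells (chr11:125904258-125904507, plus strand), OR8H2 an olfactory receptor (chr11:56103437-56103686, plus strand) and PTH parathyroid hormone (chr11:13496182-13496431, minus strand).
DDX25: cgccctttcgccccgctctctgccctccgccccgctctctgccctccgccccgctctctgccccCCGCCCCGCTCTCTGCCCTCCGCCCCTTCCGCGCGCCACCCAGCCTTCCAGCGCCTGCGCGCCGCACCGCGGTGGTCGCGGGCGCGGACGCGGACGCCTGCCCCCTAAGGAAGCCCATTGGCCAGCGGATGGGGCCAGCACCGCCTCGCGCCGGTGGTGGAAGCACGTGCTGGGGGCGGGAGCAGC
OR8H2: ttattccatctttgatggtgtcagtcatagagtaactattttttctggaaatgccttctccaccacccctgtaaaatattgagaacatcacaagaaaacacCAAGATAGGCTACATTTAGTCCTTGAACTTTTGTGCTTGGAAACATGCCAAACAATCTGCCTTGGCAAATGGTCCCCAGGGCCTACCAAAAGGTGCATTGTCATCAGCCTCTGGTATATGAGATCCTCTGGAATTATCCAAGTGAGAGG
PTH: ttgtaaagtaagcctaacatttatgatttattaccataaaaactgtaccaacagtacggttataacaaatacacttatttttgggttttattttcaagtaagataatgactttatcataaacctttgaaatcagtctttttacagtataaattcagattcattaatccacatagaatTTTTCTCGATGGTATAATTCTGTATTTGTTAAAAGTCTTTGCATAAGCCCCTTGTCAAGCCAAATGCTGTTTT
The DDX25 window is 78% G and C, the OR8H2 window 42% and the PTH window 28%. Of 15 motifs searched on both strands of these 250 bases, the DDX25 window held the E-box CACGTG, bound by MITF, USF and others, and the other 2 held none. The E-box occurs in 7.37% of all 22132 windows, so a match in 1 of 3 is a description only. The DDX25 region had pileups of 28, 12 and 7 in the 3 DMSO lists and of 13 and 4 in FHT-1015 replicates 1 and 2, with no call in replicate 3. The OR8H2 region had 11, 3 and 2 and the PTH region 3, 2 and 2, and neither was called in any FHT-1015 list of 92-1. DDX25 was thus the member of the 3 that was still called after treatment.

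A pileup is the whole number of overlapping reads or fragments at a peak, solved from the deposited fold and p. Lists of 92-1 were shallow and uneven, and this touches every count that follows. The background pileup, a stand-in for depth, was 0.43, 0.123 and 0.0839 in DMSO replicates 1 to 3 and 0.299, 0.0346 and 0.0341 in FHT-1015 replicates 1 to 3. It ran from 0.157 to 2.79 in the other lines. FHT-1015 replicates 2 and 3 were the shallowest of all 42 samples, while FHT-1015 replicate 1 was deeper than DMSO replicates 2 and 3. Depth and treatment can therefore be compared only between some of the lists, and a missing call in FHT-1015 replicate 2 or 3 says that a peak was not detectable at that depth.

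The regions were small, and most lay far from gene ends. Their median width was 178 bp (198 bp in shared segments), the widest had 588 bp, and together they covered 915 kb. Only 63 of 4910, or 1.28% (exact Clopper-Pearson 95% interval 0.987% to 1.64%, counting error only), had the start or end of a protein-coding gene within 1 kb, against 25.1% of the shared segments. Their median distance to a gene end was 97.3 kb, against 24.4 kb. Of the regions, 49.5% were over 100 kb from a gene end, against 26% of shared segments, while the shares inside a gene body were close, 42% and 43.6%. Since the rule asks for no call in 18 lists and gene starts tend to be open in every cell, a low gene-end share is partly built into the choice, and it carries no test.

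The share of 92-1 segments that were members differed between chromosomes. It was highest on chromosome X, where 321 of 1417 segments (22.7%) were members, and on chromosomes 21 (19.5%), 13 (18.6%), 4 (16.4%) and 18 (16%). It was lowest on the gene-dense chromosome 19, with 19 of 723 (2.63%), and on chromosomes 22 (6.05%) and 17 (6.39%). Copy number of 92-1 was not analysed here.

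Peaks at the regions were weak in most cases. The median pileup was 11 in DMSO replicate 1, 4 in replicate 2 and 3 in replicate 3, against 19, 6 and 4 at shared segments. A peak was called strict where its −log10 q was at least 5. Strict peaks covered 68.4%, 32.9% and 18.4% of the regions in the 3 DMSO lists, and 564 regions were strict in all 3. The strength of a region, defined as its lowest percentile of −log10 p over the 3 DMSO lists, had a median of 61.6 (86.2 for shared segments).

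The 12 strongest regions show what the clearest members look like. They were picked for high DMSO values and the treated lists differ in depth, so higher pileups with DMSO are built in and carry no test. The strongest lay 791 kb from ANKRD7 (chr7:119033675-119033953), in a stretch without protein-coding genes. Its pileups were 102, 37 and 23 with DMSO and 14 and 3 in FHT-1015 replicates 1 and 2, with no call in replicate 3. A region within CADPS2, which encodes an activator of dense-core vesicle release (chr7:122867404-122867854), had 97, 33 and 22 with DMSO. It had no call in FHT-1015 replicates 1 and 3 and a pileup of 2 in replicate 2. A region within ANGPT1, the gene of the TIE2 ligand angiopoietin 1, had 108, 50 and 20 with DMSO and 4 and 2 in FHT-1015 replicates 1 and 3. Next to PCDH9, a protocadherin gene, 181 kb away (chr13:67410712-67410982), a region had 66, 22 and 15 with DMSO and 18 and 2 in FHT-1015 replicates 1 and 2. There the value of FHT-1015 replicate 1 lay above that of DMSO replicate 3. Of the remaining 8, those of ACTR3C and TENM2 lay inside the gene and that of TSPAN6 lay 3.91 kb away. The others lay far from their nearest gene, at 424 kb from KHDRBS3, 480 kb from CCNG1, 623 kb from LOC124900252, 841 kb from ZWINT and 1360 kb from LOC124904970. DMSO pileups of these 8 ran from 82 to 127 in replicate 1, and their FHT-1015 pileups in replicate 1 from 4 to 14.

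**Figure D1:**
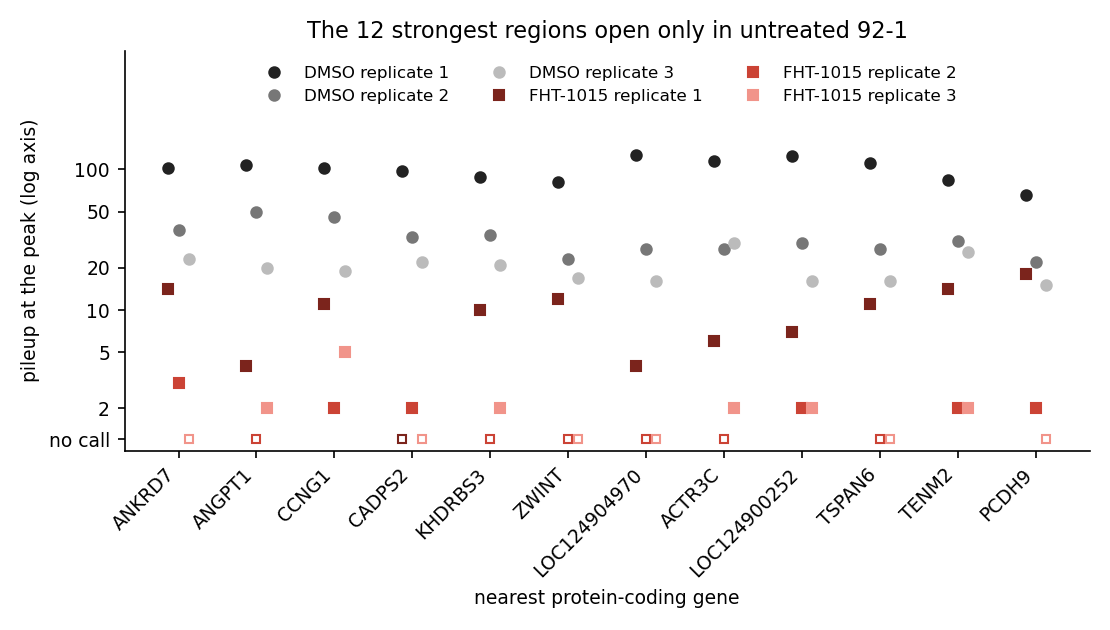
Pileup at the peak (log axis) in each of the 6 lists of 92-1 for the 12 strongest regions, named by the nearest protein-coding gene; circles are DMSO and squares FHT-1015 replicates, and open symbols on the lowest line are lists with no call. DMSO replicate 1 sits between 66 and 127, and no FHT-1015 value exceeds 18.

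With FHT-1015, the regions were lost more often than the segments of 92-1 as a whole. Of the 4910, 2985 (60.8%) had no interval in any of the 3 FHT-1015 lists, against a background of 32.5% for all 39806 segments of 92-1. A further 1379 (28.1%) were called in 1 list and 427 (8.7%) in 2. The share lost depended on how the regions were chosen: it was 46.5% for those of at least 200 bp (20.5% of all such segments), 47% when DMSO peaks with −log10 q of at least 2 made the choice (20.9%), and 36.7% for the members with strict peaks in all 3 DMSO lists. All 3 FHT-1015 lists called 119 regions (2.42%), against a background of 15.5%. Among shared segments, 28.6% were called in none and 17.3% in all 3.

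The share of the regions called was 23.5%, 15.6% and 13.7% in FHT-1015 replicates 1 to 3, against 60.6%, 36.8% and 32.2% of shared segments. The regions were thus called less often in each of the 3 lists, by 37.1, 21.3 and 18.5 percentage points, a mean of 25.6. An exact two-sided sign-flip test over the 3 lists gave p = 0.25, the smallest that 3 lists allow. The gap was also present away from gene ends, where shared segments were called in 50.6%, 28.9% and 25.6% of cases and the regions of 92-1 alone in 23.6%, 15.6% and 13.7%. A gap was present without the drug too, in regions chosen from 2 DMSO lists as described below. There the DMSO list left out called 38.1%, 43.4% and 34% of the regions and 78.6%, 68.9% and 58.8% of shared segments. An effect of FHT-1015 on the gap therefore cannot be read from the treated lists alone.

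How many other lines shared a segment went with its fate in 92-1. In FHT-1015 replicate 1 the share called was 23.5% for segments of 92-1 alone, 27.9% with 1 other line, 35.4% with 2, 48.2% with 3, 59.3% with 4, 72.8% with 5 and 92.1% with all 6. Replicates 2 and 3 showed the same order, from 15.6% to 59.7% and from 13.7% to 51.2%. Regions of 92-1 alone stood at the low end of this series in each list and only a little below segments with 1 other line. Among segments shared with 1 other line, the 2376 shared with A375, the other melanoma line, were called in 29.3%, 21.2% and 18.1% of cases. Their median strength was 83.9, against 61.6 for those shared with each of the other lines. The 547 shared with HCT116 alone were called in 29.6%, 18.6% and 16.3%, and the 502 shared with DU4475 alone in 22.1%, 14.9% and 11.6%, below the regions of 92-1 alone in each list. Segments shared with 22RV1, RD or MV411 alone were called in 27.1% to 27.5% of cases in replicate 1. Median strength moved with the number of lines, from 61.6 to 89.9, and so did the gene-end share, from 1.28% to 63.3%. No untreated list was read by number of lines, since the DMSO lists chose the segments.

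**Figure D2:**
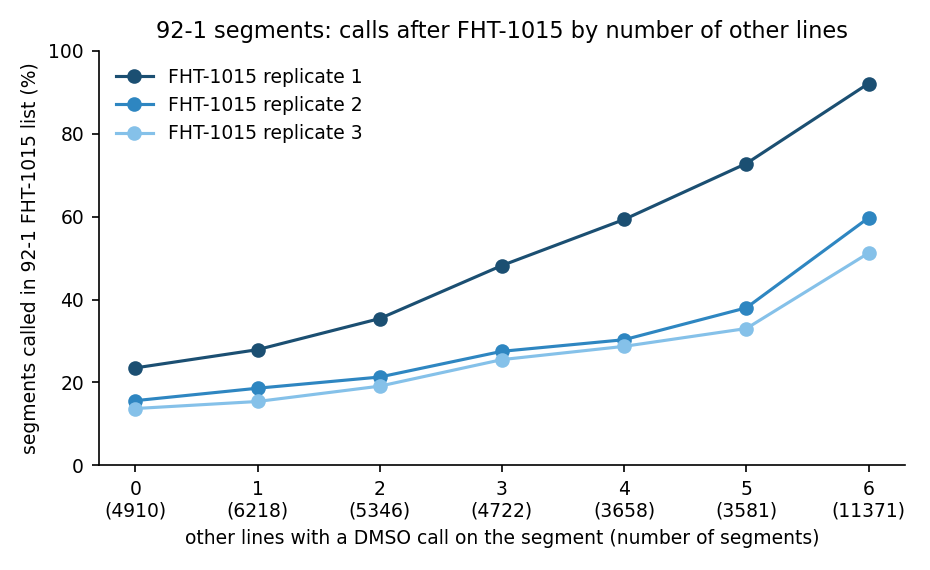
Share of 92-1 segments called in each of the 3 FHT-1015 lists of 92-1 (vertical axis, percent) by how many of the 6 other lines had a DMSO call on the segment (horizontal axis, with the number of segments). The regions open only in 92-1, at 0 other lines, have the lowest share in each list, 23.5%, 15.6% and 13.7%.

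The gap to shared segments was present at like strength. All segments were put in 4 classes of equal size by strength. In the weakest class, the 1792 members were called in 15.4%, 10.9% and 9.71% of cases in FHT-1015 replicates 1 to 3 and the 8160 shared segments in 42.8%, 20.5% and 18%. In the strongest class, the 606 members were called in 47.9%, 32.5% and 27.2% and the 9346 shared segments in 80.9%, 61.1% and 54.7%. Members were lower in each of the 4 classes and in each of the 3 lists. The DMSO lists chose the segments, so no untreated gap stands beside these classes. Of the 564 members that were strict in all 3 DMSO lists, 36.7% were lost, against 10.1% of the 8711 such shared segments, and 90, 6 and 4 of the 564 were strict in FHT-1015 replicates 1 to 3.

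**Figure D3:**
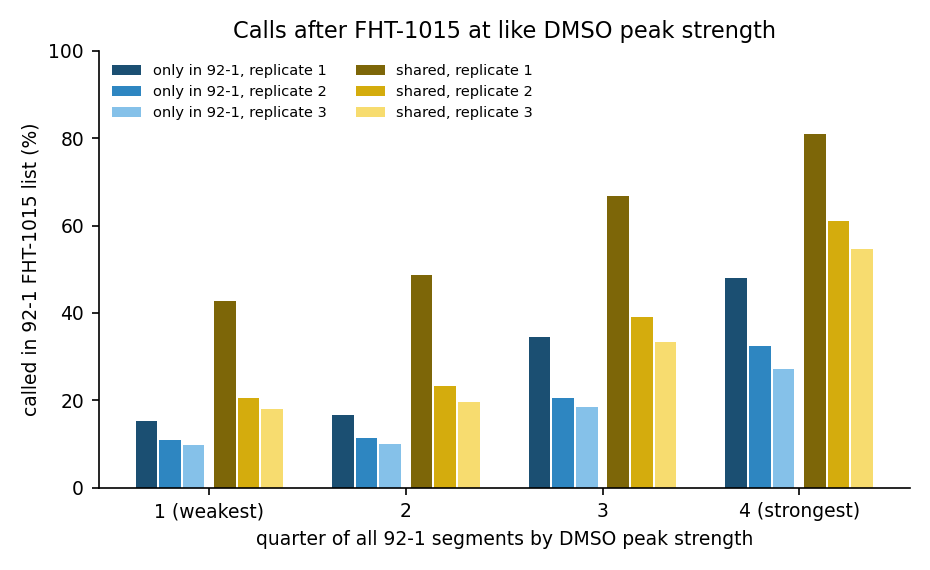
Share of segments called in each FHT-1015 list of 92-1 (percent), in 4 classes of DMSO peak strength from weakest to strongest; blue bars are regions open only in 92-1 and yellow bars shared segments, 1 bar for each replicate. Blue bars are lower than the yellow bars of the same replicate in every class, for example 47.9% against 80.9% in replicate 1 of the strongest class.

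A comparison of DMSO with FHT-1015 on the same regions needs lists that did not choose them. The rule was therefore applied 3 times, each time without the DMSO lists of 1 replicate number, and the regions were read in the DMSO list of 92-1 left out. These choices rest on 2 lists of 92-1 and are larger and noisier, with 17524, 16368 and 19860 regions. The DMSO lists left out called 38.1%, 43.4% and 34% of them, 38.5% ± 4.7 (SD, n = 3), so most regions chosen from 2 lists did not recur in the remaining list. The FHT-1015 lists called 13.7%, 10.2% and 8.84%, 10.9% ± 2.53 (SD, n = 3). The groups did not overlap, and the share fell by 27.6 percentage points (exact two-sided permutation p = 0.1, the smallest that 3 against 3 allows, and 0.35 adjusted over the 7 lines in which the regions were read).

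Shared segments fell as well in this reading. They were called in 78.6%, 68.9% and 58.8% of cases with DMSO and in 49.6%, 29.2% and 25.6% with FHT-1015, a difference of -34 points (exact permutation p = 0.1). As a percent of the shared share in the same list, the regions stood at 56.4% ± 7.38 in the DMSO lists and at 32.4% ± 4.04 (SD, n = 3) in the treated lists. This ratio fell by 24.1 points without overlap between the groups (exact permutation p = 0.1), a measure added after the data had been seen. It cancels only a loss of calls by the same factor in both sets. Members were weaker than shared segments (median strength 61.6 against 86.2), and the part of depth in this fall was not tested.

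Pileups relative to the background gave the same direction with the deepest treated list. A pileup of at least 50 times the background of its list was found at 8.17%, 10.2% and 7.59% of the regions in the DMSO replicates 1 to 3 left out. In FHT-1015 replicate 1 it was found at 0.342%, 0.446% and 0.352% of the same 3 sets. At shared segments the shares were 33.9%, 30.7% and 24.4% with DMSO and 17.1%, 15.1% and 13.6% in FHT-1015 replicate 1. High pileups were thus rare at the regions of 92-1 alone in the treated list, and less so at shared segments. The same multiple stands for a smaller pileup in a shallower list. Backgrounds were 0.123 and 0.0839 in DMSO replicates 2 and 3, below the 0.299 of FHT-1015 replicate 1. Only DMSO replicate 1, at 0.43, lay above it. This reading of pileups uses 1 treated list and has no test.

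Over the other 6 lines, no change in the calls of these regions with FHT-1015 was detected. The regions of the 3 choices were called in 3.52% of cases in their DMSO lists and in 3.53% in their FHT-1015 lists, a difference of 0.0152 points (permutation test within lines with 100000 draws, two-sided p = 0.971, 18 lists against 18). In RD the groups did not overlap, at 3.45% ± 0.107 and 2.81% ± 0.482 (SD, n = 3, exact permutation p = 0.1, adjusted 0.35). In the other 5 lines they overlapped, and the lines went both ways. In MV411 the mean was 2.49% in untreated and 3.48% in treated lists (a difference of 0.994 points), and the difference was 0.651 points in 22RV1 and 0.662 points in DU4475. It was negative in A375 (-1.2 points) and HCT116 (-0.373 points), and the adjusted exact permutation p of these 5 lines ran from 0.56 to 0.9. With strict peaks alone the direction turned, from 0.138% to 0.0839% (difference -0.0538 points, permutation p = 0.00973). Shares this low went with list length in some lines. In MV411 the DMSO lists called 1.41%, 1.48% and 4.58%, with 200316, 191397 and 279968 peaks. In 22RV1, DMSO replicate 2 called 5.74% with 297640 peaks and replicate 1 5.4% with 331713. The level of overlap by chance was not worked out, and the part of list length was not tested.

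Read as single regions, 3174 of 4910 (64.6%) were called in none of the 18 FHT-1015 lists of the other lines. This was not particular to 92-1. Regions open only in MV411 were called in none of the lists of their other lines in 64.7% of cases. The share was 60.4% for 22RV1, 54.8% for A375, 46.5% for RD, 40% for HCT116 and 36.1% for DU4475. At least 2 of the 18 FHT-1015 lists of the other lines called 531 regions of 92-1 (10.8%), against a background of 14.3% over the 50694 regions open only in any 1 of the 7 untreated lines. The member called most often elsewhere lay 30.1 kb from SEMA6B, a semaphorin gene (chr19:4589701-4589824), in 7 of the 18 lists. It was weak in 92-1, with DMSO pileups of 6, 4 and 2. A region inside MYRIP, which links melanosomes to the actin motor (chr3:40124858-40125216), was called in 6 of the 18, among them all 3 of DU4475. It was strong in 92-1, with 67, 26 and 11 with DMSO, and after FHT-1015 it was called in replicate 2 alone, with a pileup of 2. The other 4 of the 6 regions called most often elsewhere lay near KRT18, PRKDC, ESRP1 and DISC1.

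Regions open only in 1 line behaved likewise in most of the other lines, in a comparison added after the data had been seen. Chosen in the same way from 2 of 3 DMSO lists and read in lists that did not choose them, such regions of 22RV1 were called in 62.4% ± 4.91 of cases with DMSO and 25.1% ± 2.13 with FHT-1015. Those of MV411 went from 83.3% ± 3.91 to 38.5% ± 0.544 and those of A375 from 66.3% ± 12 to 37.8% ± 13.2 (SD, n = 3 each). Groups did not overlap in 6 of the 7 lines, HCT116 being the exception (20.2% ± 6.96 and 15.4% ± 1.63). The share with FHT-1015 was 28.4% of that with DMSO in 92-1, the lowest of the 7, against 40.3% in 22RV1, 44.5% in RD, 46.2% in MV411, 57% in A375, 76.5% in HCT116 and 78% in DU4475. That order did not hold for other measures: in points MV411 (-44.8), 22RV1 (-37.3), RD (-29.2) and A375 (-28.5) changed more than 92-1 (-27.6), and the ratio to shared segments with FHT-1015 was 57.4% of that with DMSO in 92-1 and 51.6% in 22RV1. In percentage points the change in 92-1 was not distinguished from that of any other line (exact permutation of line labels within treatment, 400 arrangements, adjusted p from 0.06 for HCT116 to 0.965 for A375 and RD). With the ratio to shared segments, the adjusted p of the same permutation ran from 0.68 to 0.98. Both comparisons moved raw values between lines without taking out the level of each line. Lines of unlike DMSO level, such as 92-1 and MV411, widen the reference spread, so these tests cannot show that the changes were alike. A larger loss in 92-1 was not shown, and its FHT-1015 replicates 2 and 3 were the shallowest lists of all.

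**Figure D4:**
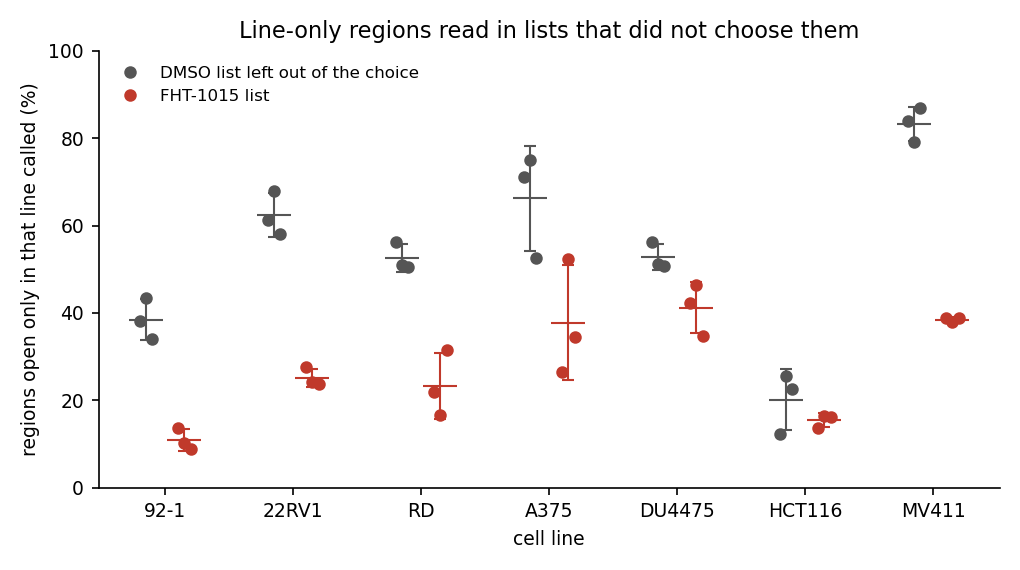
Share of regions open only in a line that were called in that line (percent), for 7 lines; grey points are the DMSO lists left out of the choice, red points FHT-1015 lists, and bars give the mean and SD of 3. In 92-1 the DMSO points lie between 34% and 43.4% and the FHT-1015 points between 8.84% and 13.7%.

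Position relative to gene ends gave no clear difference within the regions. Of the 63 at gene ends 61.9% were lost, and of the others 60.8%. The 63 were called in 19%, 12.7% and 11.1% of cases in FHT-1015 replicates 1 to 3 and the 4847 others in 23.6%, 15.6% and 13.7%. The mean difference was -3.34 points (exact sign-flip p = 0.25, the smallest possible), which amounts to a few regions read in all 3 lists. Among shared segments the order was opposite, with 90.4%, 60.4% and 52% at gene ends and 50.6%, 28.9% and 25.6% elsewhere.

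PAX3, a paired-box factor of neural crest and melanocytes that activates MITF, had the highest density of regions. With 50 kb on each side it held 5 regions in 199 kb, or 2.51 per 100 kb, the most among genes with at least 5. All 5 lay inside the gene (chr2:222199887-222298998), and a sixth lay 82 kb outside. The strongest (chr2:222264873-222265096) had DMSO pileups of 37, 9 and 5 and was called in FHT-1015 replicate 1 alone, with 6. The next (chr2:222238262-222238370) had 34, 8 and 4 with DMSO and 13 in FHT-1015 replicate 1. A region at chr2:222249653-222249831 had 17, 7 and 2 with DMSO and 12 and 4 in FHT-1015 replicates 1 and 2. Within 100 kb of PAX3, 2 of the 6 members were lost, and 17 segments of 92-1 lay there in all. After PAX3 came FSD1L (2.38 per 100 kb), HMGCLL1 (1.74), KHDRBS3 (1.67), PRKD1 (1.33), SGCD (1.14), ESRRG (1.09) and GRIA4 (1.06).

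Long genes held the largest numbers of regions. SGCD, which encodes delta-sarcoglycan of the dystrophin complex, had 13 inside or within 50 kb, of which 9 were lost. GALNTL6, a glycosyltransferase gene, had 11 with 6 lost, and DPP10, which encodes a partner of potassium channels, had 10 with 2 lost. LRP1B, a giant lipoprotein receptor gene, had 9 with 7 lost, and PTPRD, a receptor phosphatase gene, had 9 with 2 lost. ESRRG, an orphan nuclear receptor gene, had 8 with 7 lost. Among them was the strongest of all lost regions (chr1:216823780-216824101), which had pileups of 60, 25 and 18 with DMSO and no call in any FHT-1015 list of 92-1. SNTG1 had 8 as well. Other lost regions of high strength lay in GRM7, ST3GAL1 and NELL1 and 223 kb from TRPS1, with 47 to 63 in DMSO replicate 1. The strongest regions kept in all 3 FHT-1015 lists lay inside TENM2, GABRB2 and SGCD, 480 kb from CCNG1, 580 kb from CDC73 and 623 kb from LOC124900252. GABRB2, a GABA receptor subunit gene, had 76, 42 and 16 with DMSO and 30, 2 and 4 with FHT-1015 (chr5:161499691-161500273).

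In windows of 1 Mb, the largest number of regions was 11. It was reached on chromosome 6 from 48000000 to 49000000, around PTCHD4, where 11 of 17 segments were members and 4 were lost. On chromosome 10 from 81000000 to 82000000, around NRG3, a neuregulin gene, 11 of 24 were members and 10 of these were lost. On chromosome 5 from 63000000 to 64000000, around the serotonin receptor gene HTR1A, 10 of 16 were members and 8 were lost. These windows were picked after their counts were seen, so they are a description.

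Among the melanocyte transcription factors, 9 of 18 genes had a region inside or within 100 kb, against 22.1% of all 19974 protein-coding genes. Long genes reach more regions, and no test of a list was made. These 9 genes held 18 regions, 11 of them lost, near the 60.8% of all members, with 6 at PAX3 and 4 at SOX6. TFAP2A, a factor that binds with MITF at melanocyte enhancers, had a region 11.9 kb away (chr6:10431471-10431705) with pileups of 20, 10 and 9 with DMSO and no call after FHT-1015. ETV1, an ETS factor, had a region inside the gene with 11, 6 and 7 with DMSO and 4 and 2 in FHT-1015 replicates 1 and 3. MITF and SOX10 had 9 and 3 segments of 92-1 nearby, all of them shared with another line.

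Pigmentation genes had 12 regions at 7 of 25 genes, and 2 of the 12 were lost, against 60.8% of all members. EDNRB, the endothelin receptor of melanocyte precursors, had 3, and each was called in FHT-1015 replicate 1. The strongest, 54.5 kb from the gene (chr13:78029868-78030224), had 53, 13 and 7 with DMSO and 7 in FHT-1015 replicate 1. TYRP1 had 3 regions, the strongest 18.3 kb away (chr9:12674948-12675186), with 27, 10 and 7 with DMSO and 13 and 4 in FHT-1015 replicates 1 and 3. RAB38, a GTPase of melanosome transport, had a region in the gene (chr11:87871150-87871364) with 29, 6 and 6 with DMSO and 15, 4 and 2 with FHT-1015. It was called in all 6 lists. OCA2, a melanosome transporter gene, had 1 at 0.385 kb from its end (chr15:28099641-28099759), with 27, 5 and 3 with DMSO and 9 in FHT-1015 replicate 1. Of the 12, 10 were thus still detected in some treated list. Several of these rest on 1 list. The regions at EDNRB and OCA2 were called in replicate 1 alone, the deepest of the 3 treated lists. The region in MYRIP was called only with a pileup of 2 in replicate 2. The SLC24A4 region lay in RIN3, 50.8 kb from SLC24A4, and the weakest of EDNRB lay 83.3 kb away. The median strength of the 12 was 62.3, against 61.6 over all members.

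Genes of Gq signalling had 13 regions at 8 of 16 genes, and 12 of the 13 were lost, beside 60.8% of all members and 22.1% of all protein-coding genes with a region. The region in GNAQ, the Gq subunit mutated in uveal melanoma (chr9:77725165-77725387), had 17, 8 and 4 with DMSO and no call with FHT-1015. PLCB4, the phospholipase C that Gq activates, had 3 regions, all lost, with 11, 2 and 2 at the strongest. The weakest of these lay in PAK5, 71.5 kb from PLCB4. YAP1, a transcriptional coactivator downstream of Gq, had 3 within 100 kb with 2 lost. The lost ones lay in BIRC3 and CFAP300, 99 kb and 61.4 kb away, and the region inside YAP1 was called in FHT-1015 replicate 3. TRIO, the exchange factor that links Gq to YAP1, had 2, both lost. Regions at PTK2 and PRKCA, kinases of the pathway, were lost too, with DMSO pileups of 25, 7 and 6 and of 10, 6 and 5. The median strength of the 13 was 41.6, against 61.6 over all members, and its part in the losses was not tested.

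Genes of the uveal melanoma expression classifier and drivers had 10 regions at 6 of 16 genes, 8 of them lost, beside the same 60.8% and 22.1%. ROBO1, an axon guidance receptor of the classifier, held 4. Its strongest (chr3:79564240-79564456) had 65, 9 and 12 with DMSO and 8 and 2 in FHT-1015 replicates 1 and 3. SATB1, a chromatin organiser of the classifier, had 1 in the gene (chr3:18362152-18362430), with 29, 6 and 5 with DMSO and no call after treatment. Of the 16 neural crest genes, only TWIST1 had a region, a weak one with 6, 2 and 2 that was lost.

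Genes that mark the other tumour types also had regions of 92-1 alone. There were 4 at 4 of 12 epithelial genes, 2 of them at ESRP1 and 1 near both KRT8 and KRT18. There were 2 at 3 of 9 skeletal muscle genes (1 of them near both MYF5 and MYF6), 3 at 3 of 11 myeloid genes, 1 at 1 of 8 intestinal genes and 5 at 3 of 8 breast genes. Some of the regions at these lists were not weak. A region in ESR1, the oestrogen receptor gene (chr6:152005003-152005175), had 17, 6 and 10 with DMSO and was lost. Of 21 genes of BAF subunits, ARID1B had 2 regions and ARID2 had 1. The share of genes with a region was thus above that of all genes for several lists, of melanocytes and of other cells. Members made up 13.8% of the 92-1 segments within 100 kb of melanocyte transcription factors and 16.1% at breast genes. Over all 92-1 segments they made up 12.3%. The other lists were below that, among them Gq signalling (10.2%), the classifier and drivers (10.1%), epithelial (8.33%), pigmentation (7.79%) and skeletal muscle and myeloid genes (7.69% each).

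Values just inside and outside the rule were close. The 218 shortest members, nearest to the minimum of 100 bp, were called in 14.2%, 7.8% and 9.17% of cases in FHT-1015 replicates 1 to 3, and the 183 segments of at least 90 bp that were left out for their length in 13.7%, 9.29% and 7.65%. The 3259 segments left out for a call in exactly 1 of the 18 lists were called in 25.5%, 16.7% and 13.4%, against 23.5%, 15.6% and 13.7% of the members. The border of the set is therefore gradual.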

How the data were processed

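ATAC-seq peak lists (narrowPeak) of 42 samples were used, with a list of its own for each sample. Per the submitters' processing notes, Bowtie2, Picard, MACS2, limma and HOMER were used with the build hg38, and no versions or settings are stated. The authors deposited for each peak a fold over background (a ratio), a p-value and a q-value on the −log10 scale, and a score that is 10 times the −log10 p. The lowest −log10 p was about 2, so the deposited lists are lenient. Peak names of 92-1, 22RV1, HCT116 and MV411 hold the word small and their intervals are narrower, which could affect comparisons between lines.

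Groups came from the labels of each sample. Whole-number pileups and backgrounds were solved from the deposited fold and p (tolerance 0.01 on −log10 p; found for 100% of the peaks sampled in each list). An overlap of 1 bp counted as a call. RefSeq genes and promoters of GRCh38.p14 were used; the gene table has no strand. The planned motif search in the regions needs a genome and was not made. Tests were two-sided permutation or sign-flip tests over samples. They were exact, except that the test pooled over the other 6 lines used 100000 random draws within lines. Comparisons between lines permuted line labels. Benjamini-Hochberg adjustment was made over the 7 lines for held-out shares and over the 6 line comparisons of each measure. The other p-values are not adjusted. P-values of tests within 1 line measure the spread between its biological replicates. Scripts were tested on simulated data (Python 3.11.15, numpy 2.4.6, pandas 2.3.3, scipy 1.17.1).

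Regions named were the 12 strongest; the 6 strongest kept in all and lost from all FHT-1015 lists of 92-1; the 6 called most elsewhere; and those at the 8 genes with the most regions, the 8 densest genes and up to 6 genes of each of 12 lists; some regions and genes that this rule picks, and 1 list, are not reported here. Members, lists and tests were chosen with earlier results of these data known. Alternatives were strict peaks, an overlap of 100 bp, lists of equal length, segments of 200 bp, stricter choice of regions, gene ends within 2 kb, a replicate block and each replicate left out.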

Additional observations from a re-analysis of the deposited data

How the results depend on the processing

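The fall of the held-out call share in 92-1 (-27.6 points) kept its direction under every alternative run: -13.6 with strict peaks, -25.1 with an overlap of 100 bp, -19.7 with lists of equal length, -45.6 with segments of at least 200 bp and -29.8 to -25.1 without 1 replicate. With the replicate block (pairs of the same number) it was -28 points (exact sign-flip p = 0.25). Whether the numbers pair the samples is not settled. Deviations of same-numbered DMSO and FHT-1015 lists of 92-1 correlated at 0.0385, 0.00834 and 0.0057, and those of unlike numbers at -0.022 to 0.0143. The gap between members and shared segments (-25.6) ran from -29.2 to -19.9. In the other 6 lines the difference near 0 (0.0152 points) turned negative with strict peaks (-0.0538), an overlap of 100 bp (-0.115) and segments of at least 200 bp (-0.297), was 0.261 with lists of equal length (permutation p = 0.152) and 0.0655 with the replicate block, and ran from -0.21 to 0.189 without 1 replicate; the cause was not tested. Lost members numbered 739 of 1590 (46.5%) with segments of at least 200 bp and 881 of 1876 (47%) when 92-1 DMSO peaks of −log10 q of at least 2 made the choice; both choose fewer regions, and the cause of the lower share was not tested. They numbered 3299 to 3668 without 1 FHT-1015 replicate. The gene-end share was 0.959% with that stricter choice and 2.83% within 2 kb. The position difference (-3.34) was -16.3 with segments of at least 200 bp, -7.67 with the stricter choice and -1.56 within 2 kb. The ratio to shared segments (-24.1) ran from -37.1 to -18.5 over 4 settings. Depth limits FHT-1015 replicates 2 and 3 of 92-1, with a background pileup of 0.0346 and 0.0341, so lost means not detectable there. Replicate 1 had 0.299.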
